A study of Homo sapiens with 6 samples.

Results

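The genes that make, break down and sense prostaglandin E2 were described in MHCC97H cells, an established and highly metastatic human hepatocellular carcinoma line. The set held 10 of the 58825 genes in the expression table: PLA2G4A, PTGS1, PTGS2, PTGES, PTGES2, PTGES3, HPGD, PTGR1, PTGER2 and PTGER4. It was selected on the readout, because values of the same comparison were known when the genes were chosen, so their differences are given as a description and not as a test. RNA-seq was performed on 6 libraries, 3 labelled shControl, with a control short hairpin RNA and the genotype given as WT, and 3 labelled shPTBP1, with a short hairpin RNA against the splicing regulator PTBP1 and the genotype given as a knockdown. All 6 libraries came from the same cell line, and the paper describes the silenced cells as stably transduced. The labels state neither which hairpin was used nor whether the libraries of a group were separate cultures, so the spread between them may be technical. The paper gives depleted cells implanted in mice a name of the same form as these labels. The number of a shPTBP1 library could therefore also stand for a hairpin.

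Prostaglandins are short-range lipid signals made from arachidonic acid. A phospholipase releases arachidonic acid from membranes, a cyclooxygenase converts it to the unstable intermediate prostaglandin H2, and a terminal synthase turns that into prostaglandin E2, which acts on EP receptors of the cell surface until transporters and dehydrogenases remove it. Cyclooxygenase-1 (PTGS1) is known as the constitutive enzyme and cyclooxygenase-2 (PTGS2) as the inducible one. Both are blocked by aspirin, and cyclooxygenase-2 with its product prostaglandin E2 is commonly studied in inflamed and cancerous liver.

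Of the 10 genes, PTGS1 showed the largest difference, 4.23-fold higher in the libraries labelled shPTBP1 than in those labelled shControl, and HPGD, the first enzyme of prostaglandin breakdown, was 1.70-fold higher. PTGES, the inducible synthase of prostaglandin E2, was lower at 0.779-fold. In each of these 3 genes every shPTBP1 library lay on one side of every shControl library. Of all genes tested, 6.49% were higher and 5.46% lower in the same way. PTGS2 and the other genes overlapped between the groups, and the receptor genes had the lowest levels.

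Because PTGS1 and PTGS2 carry the contrast between the cyclooxygenases, the stretches of 250 bases before their annotated starts are shown, from RefSeq on GRCh38.p14. PTGS1 lies on the forward strand of chromosome 9 from 122370530 to 122395703 (ENSG00000095303, deposited annotation on hg38). RefSeq lists a start for it at 122370533 and another at 122375302. PTGS2 lies on the reverse strand of chromosome 1 from 186671791 to 186680423 (ENSG00000073756). Capitals mark motifs, which were searched on both strands, and a motif on the other strand appears as its reverse complement. The box that binds the TATA-binding protein was searched with the letters TATAAA. The GC box, a site of SP1, was searched as GGGCGG. The core of the cAMP response element was searched as TGACG, and the motif of the C/EBP factors as TTNNGNAA.
PTGS1 first start, chr9:122370283-122370532 (+): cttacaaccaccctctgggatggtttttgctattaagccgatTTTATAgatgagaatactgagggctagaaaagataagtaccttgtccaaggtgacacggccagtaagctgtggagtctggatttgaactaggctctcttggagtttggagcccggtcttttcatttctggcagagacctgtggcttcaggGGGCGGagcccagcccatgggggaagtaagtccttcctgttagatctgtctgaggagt
PTGS1 second start, chr9:122375052-122375301 (+): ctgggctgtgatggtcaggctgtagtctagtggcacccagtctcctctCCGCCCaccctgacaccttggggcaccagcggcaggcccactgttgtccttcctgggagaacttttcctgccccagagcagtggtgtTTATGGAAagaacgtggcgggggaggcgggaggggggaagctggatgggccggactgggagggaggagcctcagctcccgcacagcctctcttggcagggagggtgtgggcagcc
PTGS2, chr1:186680424-186680673 (−): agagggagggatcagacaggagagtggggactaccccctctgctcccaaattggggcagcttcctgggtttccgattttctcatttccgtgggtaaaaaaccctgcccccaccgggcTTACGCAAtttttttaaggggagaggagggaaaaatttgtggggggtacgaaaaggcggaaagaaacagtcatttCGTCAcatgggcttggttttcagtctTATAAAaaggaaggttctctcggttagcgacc
The PTGS2 window held a TATA box 32 bases before the start, a cAMP response element core at 58 bases, on the other strand, and a C/EBP motif at 133 bases. The first PTGS1 window held the TATA box letters at 208 bases, on the other strand, and a GC box at 58 bases. The second held a GC box at 202 bases, on the other strand, and a C/EBP motif at 115 bases. Among 35116 RefSeq windows of the same length, 10.7% held the TATA box, 42.6% the GC box, 21.2% the cAMP response element core and 33.2% the C/EBP motif. All 10 genes had a RefSeq window, and in the windows of the other 8 genes no TATA box was found, which says only that these letters are not in the stretches searched.

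Total counts ranged from 68704509 to 85317970 per library. PTBP1, the targeted gene, had 175, 133 and 218 CPM (counts per 1e6, scaled by TMM) in the libraries shControl 1, 2 and 3 and 142, 138 and 150 CPM in shPTBP1 1, 2 and 3. Its log2 fold change was -0.29 (standard error 0.18), and the library labelled shControl 2 lay below all 3 labelled shPTBP1. The paper states that silencing of PTBP1 in MHCC97H was verified by western blot and quantitative PCR, without tying those checks to these libraries. Each direction given here is therefore between libraries as labelled. PTBP2, a paralog that PTBP1 is known to repress, was higher in every shPTBP1 library (31.2, 28.7 and 9.20 against 59.0, 62.6 and 50.5 CPM). Its log2 fold change was 1.32 (standard error 0.41, adjusted p = 0.718 from edgeR). Higher levels without overlap were seen in 6.49% of all genes. Hemoglobin HBB was at 474 to 811 CPM in the libraries numbered 1 and 2 and at 0.566 and 0.597 CPM in both libraries numbered 3. Of 11 hepatocyte and liver cancer markers, ALB, AFP, TTR, APOB and FGB were at 0 counts in all 6 libraries, whereas the epithelial keratins KRT8 and KRT18 were at 301 to 435 CPM. The secreted liver proteins among these markers were thus at or near 0 (the highest was SERPINA1, at most 1.32 CPM). The labels name MHCC97H, a hepatocellular carcinoma line, and the reason for these low levels was not tested.

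The levels per length spanned a wide range. By mean FPKM (fragments per kilobase of transcript per 1e6 fragments) over the 6 libraries, PTGES3 was highest at 103 FPKM, followed by PLA2G4A at 37.2, PTGR1 at 18.5, PTGES at 18.2, PTGES2 at 10.8, PTGS2 at 3.47, PTGS1 at 1.90, HPGD at 0.860, PTGER4 at 0.450 and PTGER2 at 0.0367. In shControl, PTGR1 (17.1 ± 4.12 FPKM) and PTGES (20.6 ± 1.30 FPKM; SD, n = 3) did not differ beyond their spread, and neither did PTGS1 (0.740 ± 0.267 FPKM) and HPGD (0.643 ± 0.0586 FPKM). In shPTBP1, PTGS1 (3.05 ± 0.416 FPKM) lay clear of HPGD (1.08 ± 0.0503 FPKM) and overlapped PTGS2 (4.30 ± 1.33 FPKM). PTGS2 remained the higher of the pair in every one of the 6 libraries.

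**Figure D1:**
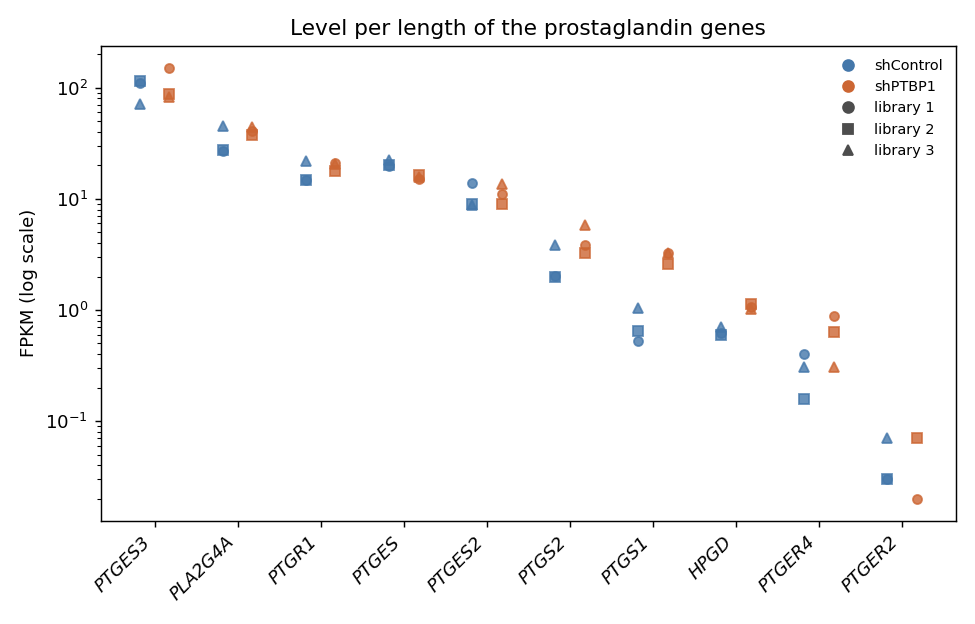
Level per length of the 10 prostaglandin genes in each library, as FPKM on a log axis, ordered by the mean over 6 libraries; colours mark the groups and shapes the library numbers. PTGER2 in shPTBP1 3 is at 0 and cannot be drawn. PTGS1 is the gene whose 2 groups lie farthest apart, and PTGES3 is the most abundant at 103 FPKM.

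Substrate release was represented by PLA2G4A, the cytosolic phospholipase A2 that frees arachidonic acid from membranes (ENSG00000116711, chromosome 1, 186828949 to 186988981, forward strand). It is the neighbour of PTGS2, with 148525 bases between the 2 genes. PLA2G4A had 93.3, 92.9 and 152 CPM in the shControl libraries and 142, 129 and 155 CPM in those of shPTBP1. The library labelled shControl 3 reached the level of the shPTBP1 libraries and the other two lay below them, so the groups overlapped. Its log2 fold change was 0.33 (standard error 0.21), and 0.61 without shControl 3. Over the 6 libraries, which share the group difference and the difference of library 3, log2 levels of PLA2G4A followed those of PTGR1 (Pearson's r = 0.978) and of PTGS2 (r = 0.945).

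Of the cyclooxygenases, PTGS1 was low in shControl and higher throughout shPTBP1. Its level was 3.64, 4.43 and 6.99 CPM in the shControl libraries and 22.8, 17.7 and 23.2 CPM in those of shPTBP1, from 249, 383 and 494 counts and 1810, 1378 and 1669 counts. The lowest shPTBP1 library was above the highest shControl library, which again was shControl 3. The log2 fold change was 2.08 (standard error 0.27), and it stayed between 1.90 and 2.39 in all the alternative count fits. In the alternatives on FPKM it was 1.22 on log2(FPKM + 1) and 1.94 on log2(FPKM + 0.1). In number 3, the pair of libraries nearly without hemoglobin RNA, PTGS1 was 3.32-fold higher in shPTBP1, a comparison of 1 library with 1, and in the libraries numbered 1 and 2 only its log2 fold change was 2.33.

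PTGS1 did not pass an adjusted p of 0.05 in edgeR's quasi-likelihood test over the 19393 genes tested. It passed in 3 of 16 alternatives: DESeq2, edgeR without shControl 3 and edgeR on the libraries numbered 1 and 2 only. Of all genes, the shares called higher under these were 0.498%, 0.565% and 0.238%. Since the gene was chosen for this difference, these counts describe the comparison and add nothing to it.

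PTGS2 had 12.8, 12.4 and 23.6 CPM in the shControl libraries and 24.3, 20.4 and 37.1 CPM in those of shPTBP1. Within each number the shPTBP1 library was higher, by 1.90-, 1.64- and 1.57-fold, but shControl 3 lay above shPTBP1 2, so the groups overlapped. Its log2 fold change was 0.74 (standard error 0.33), with values of 0.46 to 1.11 in the alternative count fits. Of the libraries numbered 3, each held the highest PTGS2 level of its group, as for PTGS1.

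Set side by side per length, PTGS1 made up 20.7%, 24.5% and 21.2% of the summed FPKM of both cyclooxygenases in shControl and 46.1%, 44.1% and 36.2% in shPTBP1. The mean share was 22.2% ± 2.07 in shControl and 42.1% ± 5.25 in shPTBP1 (SD, n = 3), with no overlap. Their summed level averaged 3.37 ± 1.33 FPKM over the shControl libraries and 7.35 ± 1.64 FPKM over those of shPTBP1. The share rested on PTGS1, which chose the set, and was not tested.

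**Figure D2:**
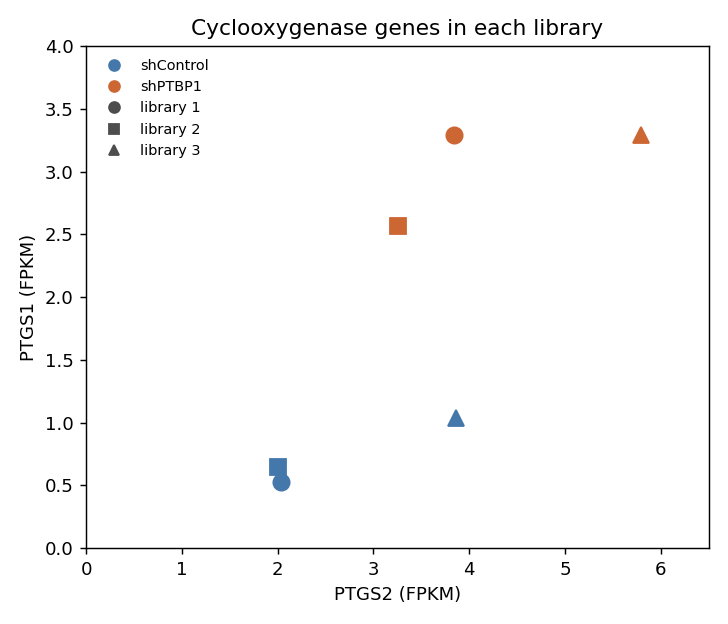
PTGS1 against PTGS2 in each library, both in FPKM on linear axes from 0; colours mark the groups and shapes the library numbers. The shControl libraries lie at 0.53 to 1.04 FPKM of PTGS1 and the shPTBP1 libraries at 2.57 to 3.29, while the groups overlap along the PTGS2 axis.

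PTGS1 is also known as the cyclooxygenase of platelets and mast cells, so markers of these and other cells were set beside it. In bulk RNA, fewer cells of a type and less RNA per cell cannot be told apart. The 10 platelet and megakaryocyte markers summed to 2.56 to 4.43 CPM in the shControl libraries and 2.36 to 4.44 CPM in those of shPTBP1, overlapping, with GP1BB and GP9 at 0 in all libraries. PPBP was at most 0.240 CPM and at 0 in number 3 of both groups. The 6 mast cell markers summed to 0.278 to 0.722 CPM in the shControl libraries and 0.252 to 0.680 CPM in those of shPTBP1, with TPSB2 and MS4A2 at 0.
The 8 monocyte and macrophage markers summed to 23.4 to 39.2 CPM in the shControl libraries and 32.6 to 46.2 CPM in those of shPTBP1, with none at 0 throughout. Of these, CD68 (9.42 to 21.5 CPM against 22.4 to 30.6 CPM) and CSF1R (1.13 to 1.75 CPM against 1.86 to 2.71 CPM) were higher in every shPTBP1 library. Higher levels without overlap were seen in 6.49% of all genes. CD14 overlapped, and LYZ, S100A8, S100A9, PTPRC and FCGR3A were at or near 0 in number 3 of both groups, as hemoglobin was. The red cell markers summed to 1.32 to 1279 CPM in the shControl libraries and 1.15 to 849 CPM in those of shPTBP1, low in number 3 of both groups. The 9 fibroblast and endothelial markers summed to 275 to 339 CPM in the shControl libraries and 366 to 486 CPM in those of shPTBP1, without overlap, with COL1A2 at 0. COL3A1 separated the groups, at 164 to 206 CPM against 268 to 352 CPM (log2 fold change 0.74, standard error 0.15), whereas COL1A1 overlapped (log2 fold change 0.0064, standard error 0.16). DCN, LUM, PDGFRB, PECAM1, VWF and CDH5 overlapped too. The part of CD68, CSF1R and COL3A1 in the prostaglandin results was not tested.

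Of the terminal synthases, PTGES alone had groups that did not overlap. PTGES, the inducible microsomal prostaglandin E synthase (ENSG00000148344, chromosome 9, 129738331 to 129753042, reverse strand), had 44.6, 44.8 and 48.5 CPM in the shControl libraries and 34.5, 36.8 and 36.1 CPM in those of shPTBP1. All shPTBP1 libraries lay below the lowest shControl library, and the spread within each group was small. Its log2 fold change was -0.36 (standard error 0.10) and lay between -0.39 and -0.32 in the alternative count fits.

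PTGES2, a second membrane-associated synthase (ENSG00000148334, chromosome 9, 128120693 to 128128418, reverse strand), had 43.9, 28.1 and 26.9 CPM in the shControl libraries and 34.9, 28.4 and 43.5 CPM in those of shPTBP1. High and low libraries occurred in both groups. The log2 fold change of 0.11 (standard error 0.24) was smaller than its error, and its sign turned without shControl 3, without shPTBP1 3 and in the libraries numbered 1 and 2 only.

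PTGES3, the cytosolic synthase better known as the HSP90 co-chaperone p23 (ENSG00000110958, chromosome 12, 56663341 to 56688408, reverse strand), had 452, 459 and 283 CPM in the shControl libraries and 618, 353 and 344 CPM in those of shPTBP1. The groups overlapped widely, with the highest library in shPTBP1 and the lowest in shControl. Its log2 fold change was 0.14 (standard error 0.28), and the sign turned without shControl 3 and without shPTBP1 1. PTGES3 has 5 processed pseudogenes in GENCODE release 29, of which PTGES3P1 was listed at a mean of 21.4 FPKM. Counts may be split between these near-identical copies.

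Both genes of breakdown had higher mean levels in shPTBP1, and they differed in overlap. HPGD, the 15-hydroxyprostaglandin dehydrogenase that inactivates prostaglandin E2 (ENSG00000164120, chromosome 4, 174490175 to 174523065, reverse strand), had 4.15, 3.94 and 4.61 CPM in the shControl libraries and 7.14, 7.46 and 7.00 CPM in those of shPTBP1. The groups did not overlap, and the libraries numbered 3 were not apart from the others. The log2 fold change was 0.77 (standard error 0.17), and 0.72 to 0.85 in the alternative count fits. On log2(FPKM + 1) without a filter it was 0.34. HPGD did not pass the adjusted threshold in edgeR and passed it in DESeq2, where 0.498% of all genes were called higher. Across the 6 libraries its log2 level followed that of PTGS1 (r = 0.972) and ran against that of PTGES (r = -0.910), as the group difference that all 3 share would give.

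PTGR1, the reductase that takes the next step of breakdown (ENSG00000106853, chromosome 9, 111549722 to 111599835, reverse strand), had 66.8, 65.2 and 95.5 CPM in the shControl libraries and 95.6, 79.9 and 93.9 CPM in those of shPTBP1. As with PLA2G4A, shControl 3 stood with the shPTBP1 libraries. PTGR1 showed a log2 fold change of 0.24 (standard error 0.17), and 0.44 without shControl 3.

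Of the receptors, PTGER4 (EP4) couples to cAMP (ENSG00000171522, chromosome 5, 40679915 to 40693735, forward strand) and had 1.73, 0.659 and 1.29 CPM in the shControl libraries and 3.73, 2.70 and 1.35 CPM in those of shPTBP1. The library labelled shPTBP1 3 lay within the shControl range. It showed a log2 fold change of 1.09 (standard error 0.49), and in number 3 the ratio was 1.05. PTGER4 overlaps TTC33 on the opposite strand, which had 45.1 to 68.2 CPM. The library kit marks strand, but whether the counting used it is not stated, so reads of TTC33 could be part of the PTGER4 value.

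PTGER2 (EP2), the other cAMP-coupled receptor (ENSG00000125384, chromosome 14, 52314305 to 52328598, forward strand), had 7, 8 and 16 counts in shControl and 4, 16 and 0 counts in shPTBP1. The 0 in shPTBP1 3 allows up to 3 counts, or 0.0407 per 1e6 counts. It was removed by the filter on low counts in the fit of all 6 libraries. Where another filter, tool or set of libraries let it in, its log2 fold change lay between -0.93 and -0.13 in the count fits, with a standard error of 1.45 in DESeq2. A difference in PTGER2 was not detectable at this depth.

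**Figure D3:**
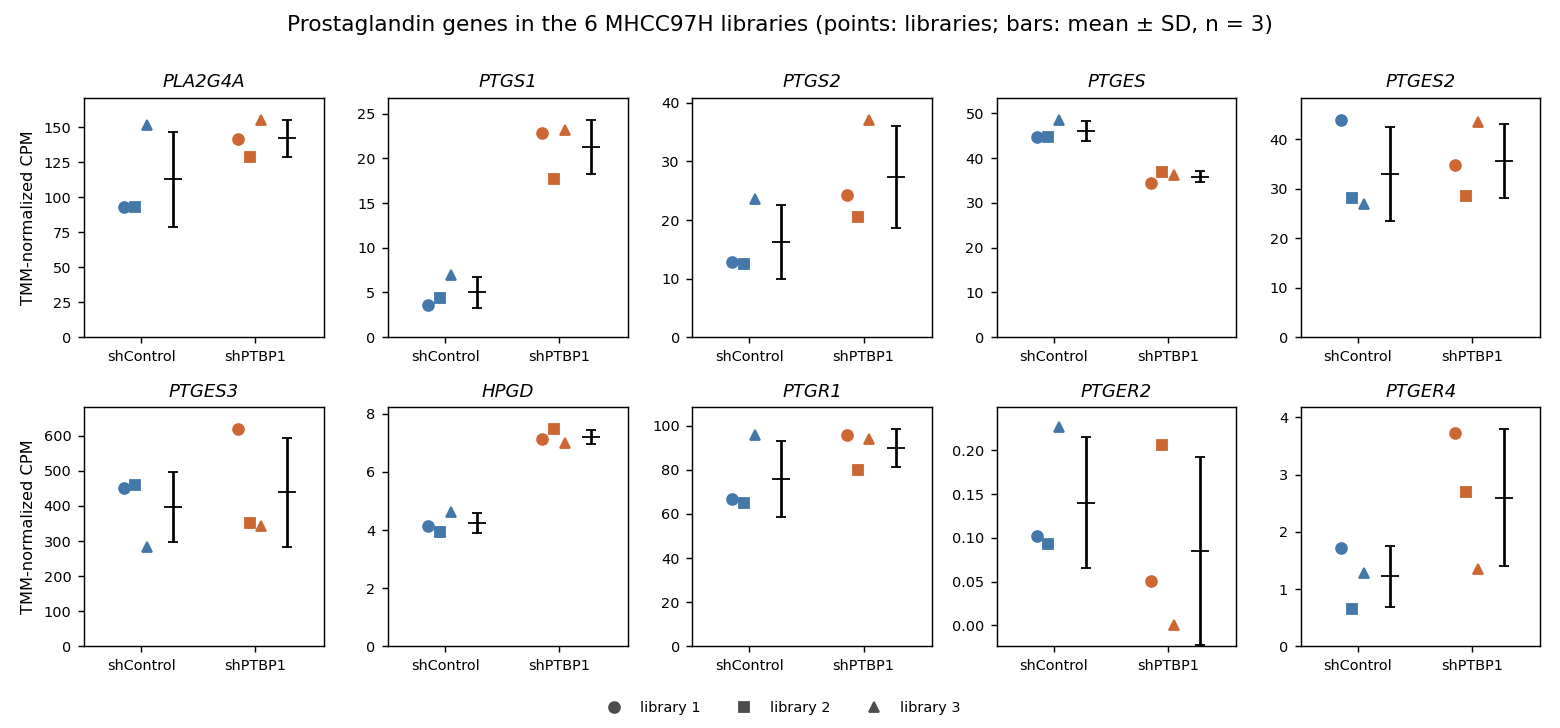
TMM-normalized CPM of the 10 prostaglandin genes, 1 panel each with its own linear axis; points are libraries, with shapes for their numbers, and bars are the mean ± SD of 3 libraries. The groups are apart in PTGS1 (3.64 to 6.99 against 17.7 to 23.2 CPM), HPGD and PTGES and overlap in the other panels.

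Counted together, 9 of the 10 genes were tested, and PTGER2 was not. None passed the adjusted threshold in edgeR, where 0.0206% of all genes were called higher and 0.0103% lower. DESeq2 called 2, PTGS1 and HPGD, each higher, where 0.498% of all genes were called higher. At an unadjusted p under 0.05, PTGS1 and HPGD were higher and PTGES lower, 3 genes in all, where 3.58% of all genes were higher and 2.11% lower. Groups without overlap were seen in 2 genes that were higher and 1 that was lower, beside 6.49% and 5.46% of all genes. Because the set was chosen on this comparison, nothing is read from these counts. The median log2 fold change was 0.33 over the 9 genes and -0.01 over all genes tested, with 8 values above 0 and 1 below. Without shControl 3 this median was 0.61.

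**Figure D4:**
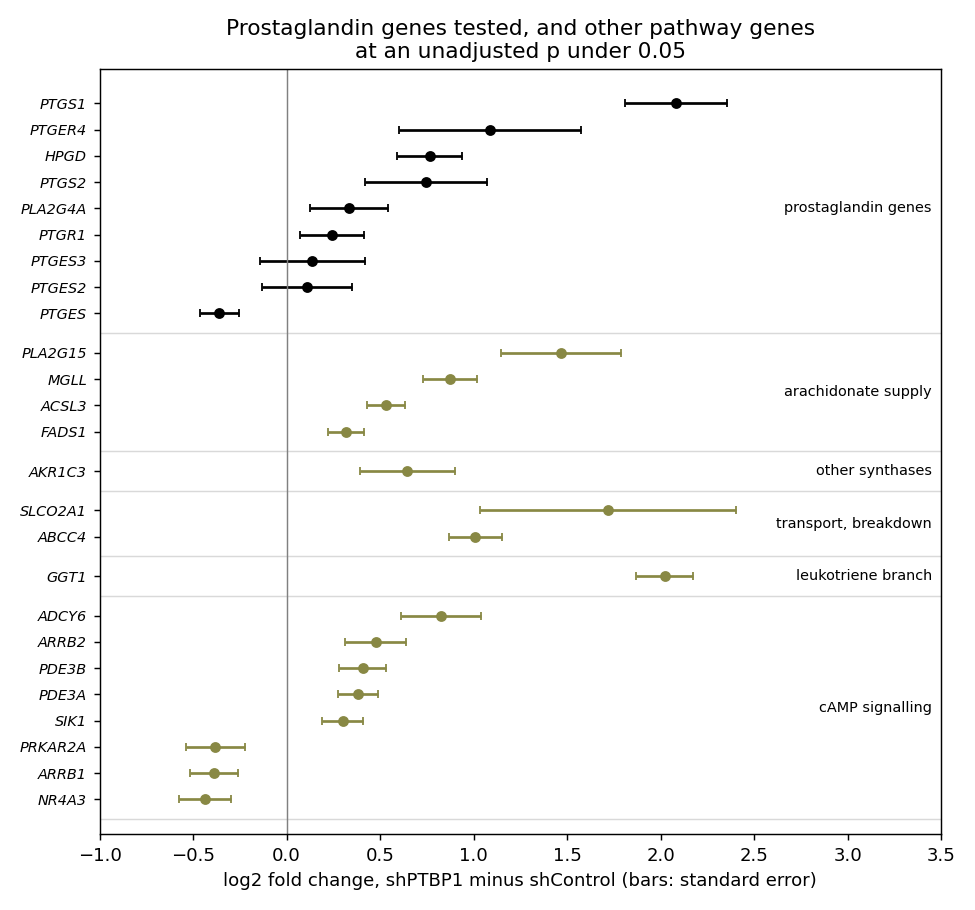
Log2 fold change of shPTBP1 minus shControl from edgeR, with its standard error, for the 9 prostaglandin genes tested (black) and for the genes of the other pathway lists at an unadjusted p under 0.05 (olive). PTGS1 at 2.08 and GGT1 at 2.02 stand at the right, the latter from 1 of 2 identifiers that differ in direction, and PTGES at -0.36 is the prostaglandin gene left of 0.

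The other genes of the pathway were taken from 7 lists, with 109 genes in the table and 89 tested. Only GGT1 passed the adjusted threshold in edgeR, higher in shPTBP1, beside 0.0206% of all genes. That call was lost in 8 of 16 alternatives, where its adjusted p was 0.0513 to 0.233, and a second identifier of GGT1 ran against it, as given with the leukotriene branch. At an unadjusted p under 0.05, 13 were higher and 3 lower, 16 of 89, beside 3.58% and 2.11% of all genes. Their median log2 fold change was 0.11. These lists were also written with earlier results of the same libraries known.

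Of 18 genes tested for arachidonic acid supply, 4 were higher at an unadjusted p under 0.05 and none lower. Of all genes, 3.58% were higher and 2.11% lower at such a p, and nothing is read from the count. PLA2G15, a lysosomal phospholipase, had 11.3, 7.10 and 18.1 CPM in the shControl libraries and 33.1, 36.3 and 31.7 CPM in those of shPTBP1, which gave a log2 fold change of 1.47 (standard error 0.32). MGLL, the lipase that frees arachidonic acid from 2-arachidonoylglycerol, had 28.9, 32.7 and 38.7 CPM against 67.5, 60.1 and 56.2 CPM, for a log2 fold change of 0.87 (standard error 0.14). Neither pair of groups overlapped, and 6.49% of all genes were higher without overlap. The acyl-CoA synthetase ACSL3 showed a log2 fold change of 0.53 (standard error 0.10) and the desaturase FADS1 one of 0.32 (standard error 0.10), both without overlap. ELOVL5, the fatty acid elongase with the highest level of the list at 68.4 FPKM, showed a log2 fold change of -0.06 (standard error 0.12). None of these passed the adjusted threshold.

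The other prostanoid synthases were partly silent. HPGDS and PTGIS, which make prostaglandin D2 and prostacyclin, were at 0 counts in all 6 libraries. AKR1C3, a prostaglandin F synthase, had 237, 180 and 303 CPM in the shControl libraries and 302, 322 and 502 CPM in those of shPTBP1, with a log2 fold change of 0.65 (standard error 0.25) and overlapping groups. AKR1C3 has close paralogs, so its counts are uncertain. AKR1B1, an aldose reductase that also makes prostaglandin F2 alpha, was the most abundant at 75.1 FPKM, with a log2 fold change of -0.20 (standard error 0.18). Of 6 genes tested, AKR1C3 alone was higher at an unadjusted p under 0.05 and none lower, beside 3.58% and 2.11% of all genes.

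No other prostanoid receptor was at an unadjusted p under 0.05, and 3 of 8 were tested. PTGER1 and PTGDR were at 0 counts in all libraries. TBXA2R, the thromboxane receptor, had a mean of 2.17 FPKM and its log2 fold change was 0.21 (standard error 0.53). PTGFRN, a regulator of the prostaglandin F receptor, had a mean of 11.0 FPKM and its log2 fold change was 0.31 (standard error 0.15).

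Of 7 genes tested for transport and further breakdown, 2 were higher at an unadjusted p under 0.05, beside 3.58% of all genes. ABCC4, an exporter known to carry prostaglandin E2 out of cells, had 47.2, 55.2 and 64.5 CPM in the shControl libraries and 113, 120 and 103 CPM in those of shPTBP1. The groups did not overlap, beside 6.49% of all genes that were higher without overlap. The log2 fold change of ABCC4 was 1.01 (standard error 0.14, adjusted p = 0.156 from edgeR). SLCO2A1, the prostaglandin importer, was low in both groups, at 0.0925 to 0.566 CPM against 0.736 to 1.17 CPM, with a log2 fold change of 1.72 (standard error 0.68). AKR1C2 and SLCO3A1, the most abundant of the list at 41.6 and 10.5 FPKM, had log2 fold changes of 0.45 (standard error 0.34) and 0.12 (standard error 0.10).

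In the leukotriene branch, the competing use of arachidonic acid, 1 of 17 genes tested passed the adjusted threshold, beside 0.0206% of all genes called higher. GGT1, a gamma-glutamyltransferase that acts on leukotriene C4, had 27.9, 19.5 and 21.8 CPM in the shControl libraries and 94.0, 97.1 and 89.3 CPM in those of shPTBP1, which gave a log2 fold change of 2.02 with a standard error of 0.15 (edgeR adjusted p = 0.0188). A second identifier of the same symbol, ENSG00000286070, went in the opposite direction, with 58.0, 66.1 and 70.7 CPM in the shControl libraries and 0.0757, 0 and 2.96 CPM in those of shPTBP1. With both identifiers added up, GGT1 was at 87.9 ± 3.94 CPM in the shControl libraries and 94.5 ± 2.45 CPM in those of shPTBP1 (SD, n = 3), so the higher value of the first identifier went with a lower value of the second. EPHX1 and LTA4H, an epoxide hydrolase and the leukotriene A4 hydrolase, were the most abundant at 31.0 and 17.5 FPKM, with log2 fold changes of 0.19 (standard error 0.13) and -0.07 (standard error 0.11).

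Downstream of the EP receptors, 28 genes of cAMP signalling were tested, of which 5 were higher and 3 lower at an unadjusted p under 0.05. Of all genes, 3.58% were higher and 2.11% lower at such a p. Higher were the adenylyl cyclase ADCY6, at a log2 fold change of 0.83 (standard error 0.21), the cAMP phosphodiesterases PDE3A at 0.38 (standard error 0.11) and PDE3B at 0.41 (standard error 0.13), the arrestin ARRB2 at 0.48 (standard error 0.16) and the kinase SIK1 at 0.30 (standard error 0.11). Lower were the protein kinase A subunit PRKAR2A at -0.38 (standard error 0.16), the arrestin ARRB1 at -0.39 (standard error 0.13) and NR4A3, a nuclear receptor induced by cAMP, at -0.44 (standard error 0.14). Of the cAMP targets at such a p, SIK1 lay above 0 and NR4A3 below. The targets NR4A1 (0.40, standard error 0.23), NR4A2 (-0.04, standard error 0.28) and AREG (-0.21, standard error 0.50) were not at such a p. ADCY6 had 74.1, 55.2 and 56.4 CPM in the shControl libraries and 122, 128 and 79.0 CPM in those of shPTBP1, without overlap. Higher levels without overlap were seen in 6.49% of all genes. GNAS, the stimulatory G protein subunit through which these receptors act and the most abundant of the list at 55.0 FPKM, showed a log2 fold change of -0.11 (standard error 0.11).

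The 10 proteins that bind AU-rich elements, through which the stability of PTGS2 mRNA is known to be set, gave no gene at an unadjusted p under 0.05 in either direction. KHSRP and HNRNPD, the most abundant at 34.6 and 33.2 FPKM, had log2 fold changes of -0.11 (standard error 0.17) and -0.08 (standard error 0.12). The list had a median log2 fold change of -0.06.

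Finally, the genes whose log2 levels were most like PTGS1 over the 6 libraries, among 11985 genes compared, were CDKN1A (r = 0.992), TDRD3 (r = 0.991), PIGT (r = 0.990), MAP2 (r = 0.988) and ACKR3 (r = 0.988). All share the group difference, and shControl 3 was the highest shControl library in each, as in PTGS1. CDKN1A, the CDK inhibitor p21, had 113, 111 and 144 CPM in the shControl libraries and 236, 231 and 235 CPM in those of shPTBP1. MAP2, a microtubule-associated protein, had 5.49, 7.61 and 9.51 CPM against 20.1, 20.9 and 22.3 CPM.

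**Figure D5:**
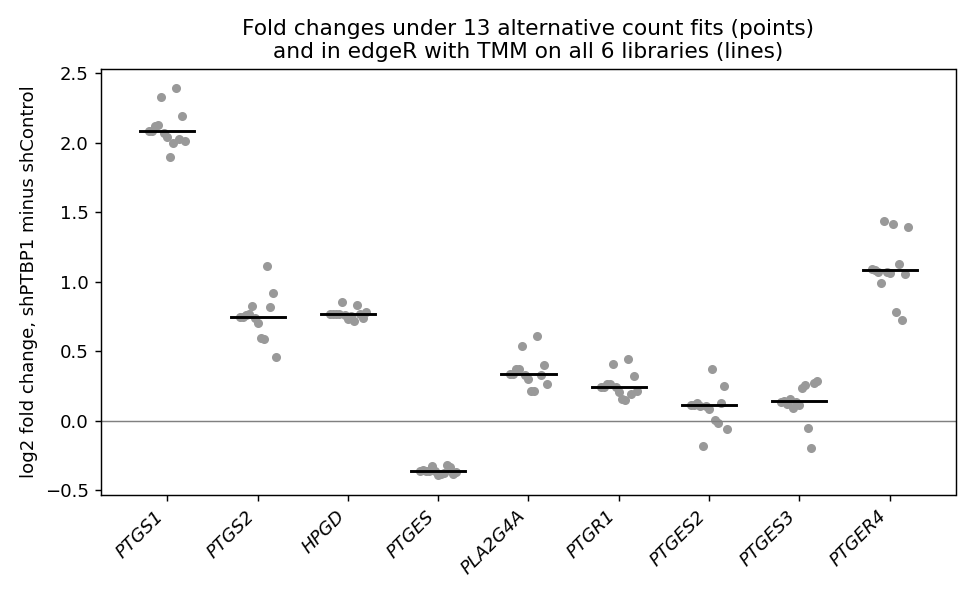
Log2 fold change of the 9 prostaglandin genes tested, under the alternative count fits (grey points) and in edgeR with TMM on all 6 libraries (black lines). PTGS1 stays between 1.90 and 2.39 and PTGES below 0, and points of PTGES2 and PTGES3 fall on both sides of 0.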

How the data were processed

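Gene-level values of 6 MHCC97H libraries, 3 shControl and 3 shPTBP1, were used. Per the submitters' processing notes, cutadapt 1.9, FastQC, HISAT2 2.2.1 and StringTie were run on hg38; their settings and the strand setting of the counting are not given in the sources used here. The authors deposited FPKM and counts for 58825 genes. The deposited counts were treated as estimated counts and used after rounding, since 32.5% to 34.4% of those from 1 to 40 were multiples of 4 in each library, and the depth in fragments is therefore uncertain. The floor given for a count of 0 covers counting error only.

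The main test was that of edgeR 4.0.16 in R 4.3.3 (quasi-likelihood test, TMM, filter on low counts, no covariates, Benjamini-Hochberg adjustment over 19393 genes, threshold 0.05). Each standard error is the size of the log2 fold change divided by the square root of F. Alternatives, 16 in all, used DESeq2 1.42.0, limma 3.58.1 on log2(FPKM + 1) or log2(FPKM + 0.1), other filters, scalings and covariates, and fewer libraries. Simulated data took each gene's mean over all 6 libraries and a spread set by the mean alone (18671 genes). On them edgeR called 20 of 91 genes changed 2-fold, 62 of 100 changed 4-fold and 2 of 18480 unchanged. They held no other difference between libraries of a group, so these counts need not hold for the measured libraries. The labels do not state separate cultures. The legend of the paper's RNA-seq figure calls its data representative of independent experiments, without saying whether each library was one. The p-values therefore measure the spread between these libraries only. Correlations used log2 CPM with a prior count of 2 and are descriptions.

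The genes and all lists were chosen with earlier results of these data known. Named were the 10 prostaglandin genes, PTBP1, PTBP2 and HBB, the genes of each pathway list at an unadjusted or adjusted p under 0.05 and its 2 of highest mean FPKM, and the 5 genes most like PTGS1 among those with a mean of at least 1 FPKM. Genes named at 0, marker genes, TTC33 and PTGES3P1 were chosen after their values were seen. Where a symbol had several identifiers, the lowest was used. Of the list symbols, 5 were not analysed here, older names among them. Gene positions were those deposited by the authors, and GENCODE release 29 gave overlapping genes and pseudogenes. Python 3.11.15, pandas 2.3.3, numpy 2.4.6 and matplotlib 3.10.9 were used.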

Additional observations from a re-analysis of the deposited data

How the results depend on the processing

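Of the 16 alternatives, 13 left the count of prostaglandin genes past the adjusted threshold at 0. It was 2 in DESeq2 (PTGS1 and HPGD) and 1 (PTGS1) in the libraries numbered 1 and 2 only, and ran from 0 to 1 when each library was left out. The count at an unadjusted p under 0.05 was 5 in DESeq2, 5 with number 3 as a covariate and 7 in the libraries numbered 1 and 2 only, and ran from 3 to 6 when each library was left out, with 6 without shControl 3. The share of all genes at such a p moved too, from 5.69% to 4.42% in DESeq2, 6.63% with number 3 as a covariate, 17.7% in the libraries numbered 1 and 2 only and 16.6% without shControl 3. Other pathway genes past the adjusted threshold were 4 in DESeq2, 0 in limma on log2(FPKM + 1) without a filter, 0 with number 3 as a covariate, 0 in the libraries numbered 1 and 2 only, and 0 to 4 when each library was left out; GGT1 was lost without shControl 2 and without each shPTBP1 library. Over all genes the count of 6 became 167 in DESeq2, 1 in limma without a filter, 3 with number 3 as a covariate, 63 in the libraries numbered 1 and 2 only and 2 to 136 when each library was left out, with 136 without shControl 3. The cause of these differences was not tested.

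The log2 fold change of PTGES2 reversed to -0.18 in the libraries numbered 1 and 2 only, to -0.016 without shControl 3 and to -0.058 without shPTBP1 3, and ran from -0.058 to 0.37 when each library was left out. That of PTGES3 reversed to -0.056 without shControl 3 and to -0.20 without shPTBP1 1, and ran from -0.20 to 0.29. The median over the prostaglandin genes kept its sign, at 0.22 to 0.61, with 0.54 in the libraries numbered 1 and 2 only. The difference in the PTGS1 share of both cyclooxygenases stayed between 18.0 and 23.0 percentage points.

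With the number of each library as a replicate block, 0 genes in all, 0 prostaglandin genes and 0 other pathway genes passed, and 4 prostaglandin genes were at an unadjusted p under 0.05. The standard error of PTGS2 was 0.15 with the block and 0.33 without. Deviations of same-numbered libraries had r = -0.029, 0.16 and 0.058 over 11986 genes, and of the shControl libraries only shControl 2 correlated best with its own number. Pairing by number was not established by this check, although both libraries numbered 3 were low in hemoglobin RNA.

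PTGER2 rested on 0 to 16 counts per library, which limited any statement on it.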
